A study of Mus musculus with 8 samples.

Results

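The miR-15, miR-16, miR-195 and miR-497 family is a set of miRNAs that share 1 seed, the bases near the 5′ end through which a miRNA recognises its target messages. Its members here were the 6 array entries named mmu-miR-195a-5p, mmu-miR-497a-5p, mmu-miR-15a-5p, mmu-miR-15b-5p, mmu-miR-16-5p and mmu-miR-322-5p (written without the species prefix from here on), chosen by name from the 1881 mouse miRNAs on the array. All 6 were well above background on all 8 arrays and were among the 222 miRNAs tested.

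The skin came from 2 groups of male mice that all carried the alleles Ncstn flx/flx and Krt14 CreER+/-, 4 arrays per group. The NcstnΔKC mice were given tamoxifen by gavage at 20 mg/kg/day for 5 days and then once every 10 days, starting at 8 weeks of age. The normal mice were given an equal volume of corn oil. Skin lesions were taken at 16 weeks, and total RNA was hybridised to 1-colour Agilent miRNA arrays, which measure the brightness of Cy3 on short probes. Ncstn encodes nicastrin, a subunit of the gamma-secretase complex, and the Krt14 promoter drives the inducible Cre in basal keratinocytes, whereas the RNA was from skin tissue with all its cell types. Because every NcstnΔKC mouse had tamoxifen and no normal mouse did, drug and deletion cannot be told apart. Ncstn itself is a protein-coding gene and was not measured on these arrays. The labels do not say whether the 4 samples of a group were 4 separate mice, so each p-value reflects only how these samples vary, which may be technical.

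Members of this family are known to repress messages for cell cycle regulators, among them cyclin D1, cyclin E1 and the kinase Wee1, and the message for the survival protein Bcl2. They are transcribed from separate clusters, so that miRNAs of the same seed stand under different promoters.

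The mature sequences are shown because they define the family and differ only outside the seed. They were taken from RefSeq (GRCm38.p6), where all 6 names matched, and are written 5′ to 3′ with the seed, bases 2 to 8, in capitals.
miR-195a-5p: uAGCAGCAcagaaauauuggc
miR-497a-5p: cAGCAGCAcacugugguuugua
miR-15a-5p: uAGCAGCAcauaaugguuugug
miR-15b-5p: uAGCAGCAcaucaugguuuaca
miR-16-5p: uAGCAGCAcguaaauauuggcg
miR-322-5p: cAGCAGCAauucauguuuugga

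Of 1679 RefSeq mature miRNA names, 10 carried this seed (0.596%). The other 4, miR-195b, miR-6342, miR-6353 and miR-6419, had probes on the array and were well above background on 0 of the 8 arrays.

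The members lie in 4 clusters, given here by the positions of the mature sequences in GRCm38.p6. miR-497a-5p (chr11:70234730-70234751) and miR-195a-5p (chr11:70235062-70235082) are both on the plus strand, with 241 bases between their hairpins. miR-15a-5p (chr14:61632075-61632096) lies on the minus strand within the long noncoding RNA gene Dleu2, 54 bases from the first hairpin of miR-16-5p (chr14:61631936-61631957). miR-15b-5p (chr3:69009775-69009796) lies on the plus strand within Smc4, which encodes a condensin subunit, 66 bases from the second hairpin of miR-16-5p (chr3:69009918-69009939). miR-16-5p has the same mature sequence at both loci, so its array signal is the sum of the 2 clusters. miR-322-5p (chrX:53054306-53054327), the mouse counterpart of human miR-424, lies on the minus strand within the noncoding gene C430049B03Rik, 200 bases from the hairpin of miR-503.

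The 2 members most alike in sequence were miR-195a-5p and miR-16-5p, with 19 of 21 aligned bases identical. miR-195a-5p and its cluster neighbour miR-497a-5p shared only 12 of 21, and miR-15a-5p and miR-15b-5p shared 18 of 22. Because miR-195a-5p and miR-16-5p belonged to clusters that behaved differently, the longer deposited probe sequence of each is given, 5′ to 3′. Capitals mark the bases opposite which the other miRNA of the pair differs or has ended.
miR-195a-5p probe: gccaatatttCTgtgctgc
miR-16-5p probe: CgccaatatttACgtgct

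The miR-195a-5p probe had 2 bases that did not match miR-16-5p. The miR-16-5p probe had 3 that did not match miR-195a-5p, 1 of them beyond the end of miR-195a-5p. No probe of the 6 members was fully complementary to any other RefSeq mature miRNA. How far such mismatches prevent binding of the other miRNA was not measured.

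Each miRNA value below is the summed signal of its probes relative to the 75th percentile of the probes detected on all 8 arrays, on the log2 scale, where 0 equals that percentile. Between 198 and 238 miRNAs were detected on each NcstnΔKC array and between 235 and 273 on each normal array, and no spot was saturated. The arrays shared 1 slide, with all NcstnΔKC samples in 1 slide row and all normal samples in the other, and the effect of the row cannot be told apart from that of the group. In both rows replicates 1 to 4 lay in slide columns 1 to 4, so an order by replicate is also an order by column. Across all 222 tested miRNAs the median difference, NcstnΔKC minus normal, was -0.23. At an adjusted p under 0.05 (limma, Benjamini-Hochberg over all 222), 33 miRNAs were higher in NcstnΔKC skin and 62 lower. This split depended on scaling and was 36 higher and 36 lower with the authors' deposited normalised values.

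The family did not move together. miR-195a-5p and miR-497a-5p fell in NcstnΔKC skin, by 1.21 and by 1.04 on the log2 scale, while miR-15b-5p rose by 0.52. miR-15a-5p, miR-16-5p and miR-322-5p did not pass the test. In all, 2 of 6 members were lower, against 27.9% of all tested miRNAs, and 1 of 6 was higher, against 14.9%. In a fit of only the 174 miRNAs detected on all 8 arrays, as all members were, 34 were lower and 27 higher. The count of 3 called in either direction compares with a background of 42.8%, and the median difference of the members was -0.13. By counts, the groups did not overlap for 3 of 6 members, against 36.9% of all tested miRNAs, with 2 lower (background 23.4%) and 1 higher (background 13.5%). With 6 members these shares are too coarse to be set apart from the background.

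**Figure D1:**
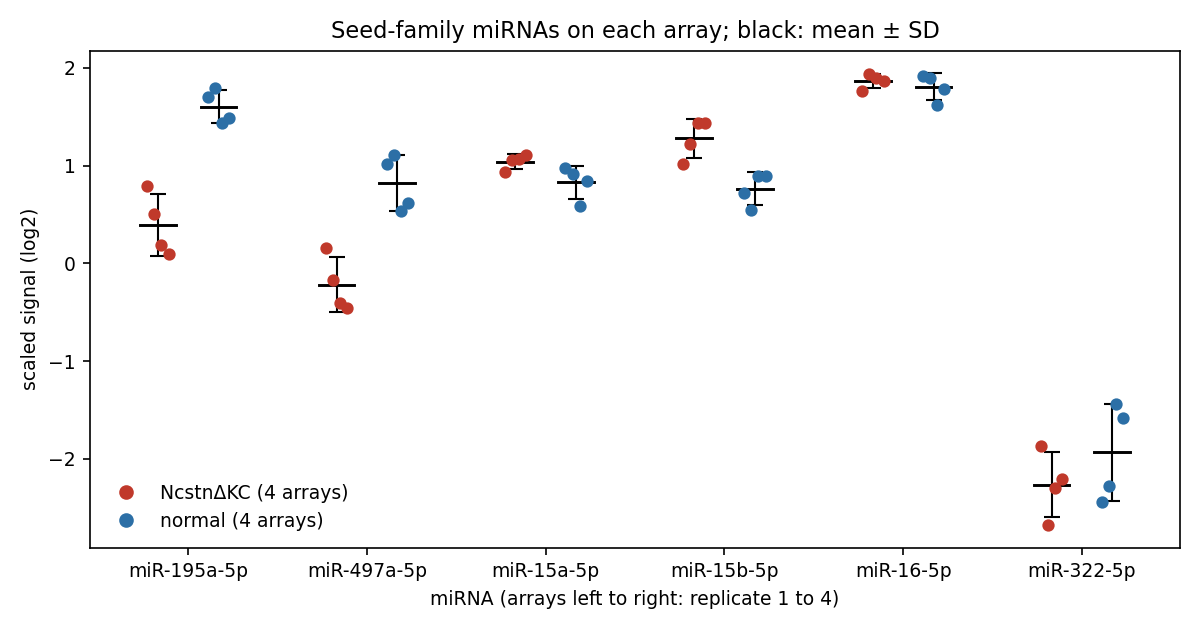
Scaled signal (log2) of the 6 family members on each of 8 arrays, NcstnΔKC in red left of normal in blue, replicates 1 to 4 from left to right, with black bars for the mean ± SD. The miR-195a-5p and miR-497a-5p points of NcstnΔKC skin all sit below those of normal skin, those of miR-15b-5p all sit above, and the groups overlap for the other 3.

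miR-195a-5p, known as a repressor of cyclins and of Wee1, was at 0.79, 0.50, 0.19 and 0.10 on the 4 NcstnΔKC arrays, against 1.70, 1.79, 1.44 and 1.49 on the 4 normal arrays. Every NcstnΔKC array was below every normal array, and the gap between the groups was 0.65, while the values within the NcstnΔKC group spread over 0.70. The means were 0.39 ± 0.32 in NcstnΔKC skin and 1.60 ± 0.17 in normal skin (SD, n = 4 each). The difference was -1.21 ± 0.19 (SE), with a 95% interval of -1.64 to -0.78 and an adjusted p of 0.00238 by limma, which is 2.31-fold lower. It was the 24th lowest of the 222 differences.

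miR-497a-5p, made from the hairpin next to that of miR-195a-5p, was at 0.16, -0.17, -0.41 and -0.46 on the NcstnΔKC arrays, against 1.01, 1.11, 0.54 and 0.61 on the normal arrays. Again no NcstnΔKC value reached the lowest normal value, and the gap was 0.38. The mean was -0.22 ± 0.28 in NcstnΔKC skin and 0.82 ± 0.29 in normal skin (SD, n = 4 each). The difference of -1.04 ± 0.20 (SE; 95% interval -1.50 to -0.58) had an adjusted p of 0.00466 by limma and was 2.05-fold lower, the 35th lowest. Both cluster members thus ranked among arrays in the same way within the NcstnΔKC group, highest on replicate 1 and lowest on replicate 4. In the normal group both were highest on replicate 2 and lowest on replicate 3. In bulk skin, fewer cells of a type and less RNA per cell cannot be told apart.

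miR-15b-5p, of the cluster within Smc4, had 1.02, 1.23, 1.44 and 1.43 in NcstnΔKC skin, against 0.72, 0.55, 0.90 and 0.90 in normal skin. The groups did not overlap, but the gap of 0.12 was smaller than the spread within either group (0.42 in NcstnΔKC skin and 0.35 in normal skin). The means were 1.28 ± 0.20 and 0.76 ± 0.17 (SD, n = 4 each) for NcstnΔKC and normal skin. The difference was 0.52 ± 0.16 (SE), or 1.43-fold higher, with a 95% interval of 0.16 to 0.87 and an adjusted p of 0.0291 by limma. The call was lost when any 1 of 5 arrays was left out, with adjusted p-values of 0.0530, 0.0891 and 0.0729 without NcstnΔKC replicate 2, 3 and 4, and 0.0540 and 0.0611 without normal replicate 1 and 2.

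miR-15a-5p, of the cluster within Dleu2, was at 0.94, 1.05, 1.07 and 1.11 in NcstnΔKC skin, against 0.98, 0.91, 0.59 and 0.84 in normal skin. Normal replicate 1 lay above NcstnΔKC replicate 1, so the groups overlapped. The difference was 0.21 ± 0.14 (SE; 95% interval -0.10 to 0.52; limma adjusted p = 0.242).

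miR-16-5p, the product of both miR-15/16 clusters, had 1.77, 1.94, 1.90 and 1.87 in NcstnΔKC skin, against 1.92, 1.90, 1.62 and 1.79 in normal skin. The groups overlapped over most of their range. The difference was 0.062 ± 0.13 (SE), and its 95% interval of -0.23 to 0.36 left room for a small shift in either direction (limma adjusted p = 0.701).

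miR-322-5p, the X-linked member, was at -1.87, -2.68, -2.30 and -2.21 in NcstnΔKC skin, against -2.44, -2.27, -1.44 and -1.58 in normal skin. The lowest value was an NcstnΔKC array and the highest a normal array, with overlap between. It varied more within the groups than any other member (SD 0.33 in NcstnΔKC skin and 0.50 in normal skin), and its difference of -0.33 ± 0.27 (SE) had a 95% interval of -0.96 to 0.30 and a limma adjusted p of 0.347.

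**Figure D2:**
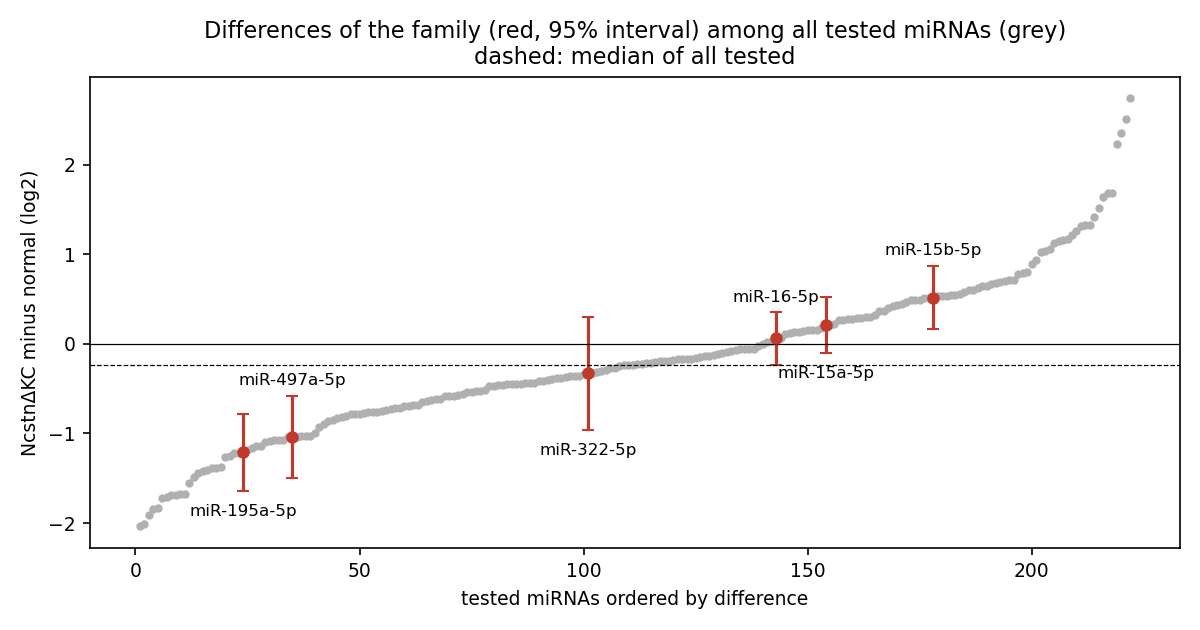
Difference, NcstnΔKC minus normal (log2), of all 222 tested miRNAs in order of size (grey points), with the 6 family members in red and bars for their 95% interval. miR-195a-5p and miR-497a-5p lie in the lower tail at ranks 24 and 35, miR-15b-5p at rank 178, and the dashed line is the median of all tested, -0.23.

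The 2 probes of each member gave like differences. They were -1.21 and -1.20 for miR-195a-5p, -1.09 and -1.02 for miR-497a-5p, and 0.52 for both probes of miR-15b-5p. The probe differences were 0.19 and 0.23 for miR-15a-5p, 0.051 and 0.097 for miR-16-5p, and -0.35 and -0.31 for miR-322-5p. No member's pair of probes differed in sign.

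The contrast between clusters can be read within each array, where any scaling factor of the array cancels. The mean of miR-195a-5p and miR-497a-5p minus the mean of miR-15a-5p, miR-15b-5p and miR-16-5p was -0.77, -1.24, -1.58 and -1.65 on the NcstnΔKC arrays, against 0.15, 0.33, -0.046 and -0.13 on the normal arrays. All 4 NcstnΔKC arrays were below all 4 normal arrays, with a gap of 0.64. The mean was -1.31 ± 0.40 in NcstnΔKC skin and 0.078 ± 0.21 in normal skin (SD, n = 4 each), a difference of -1.39, or 2.62-fold lower. No p-value is given for this ratio because its members were chosen with earlier results of these data known.

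The pair most alike in sequence showed the same contrast. The log2 ratio of miR-195a-5p to miR-16-5p was -0.98, -1.44, -1.71 and -1.77 in NcstnΔKC skin, against -0.22, -0.11, -0.18 and -0.30 in normal skin. The normal arrays lay within a narrow band (SD 0.081), and the NcstnΔKC arrays spread more widely below it (SD 0.36). The difference was -1.27, or 2.41-fold lower.

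The other ratios across the clusters also separated the groups. Against miR-15a-5p the ratio of miR-195a-5p differed by -1.42 and that of miR-497a-5p by -1.25. Against miR-15b-5p the differences were -1.73 and -1.55, and that of miR-497a-5p against miR-16-5p was -1.10, none with overlap between groups. Ratios of miR-195a-5p and miR-497a-5p to miR-322-5p differed by -0.88 and -0.71, with overlap.

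Within the cluster of miR-195a and miR-497a the ratio of the neighbours was more even. miR-195a-5p over miR-497a-5p was 0.64, 0.67, 0.59 and 0.56 in NcstnΔKC skin, against 0.69, 0.68, 0.90 and 0.87 in normal skin. The groups were separated by only 0.0086, between NcstnΔKC replicate 2 and normal replicate 2, and the difference was -0.17. Of the miR-15 pair, miR-15b-5p over miR-15a-5p was 0.086, 0.17, 0.37 and 0.33 in NcstnΔKC skin, against -0.26, -0.37, 0.31 and 0.055 in normal skin. The groups overlapped, with a difference of 0.30. miR-15a-5p over miR-16-5p ranged from -0.88 to -0.76 in NcstnΔKC skin and from -1.03 to -0.94 in normal skin, a difference of 0.15 with a gap of 0.060.

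**Figure D3:**
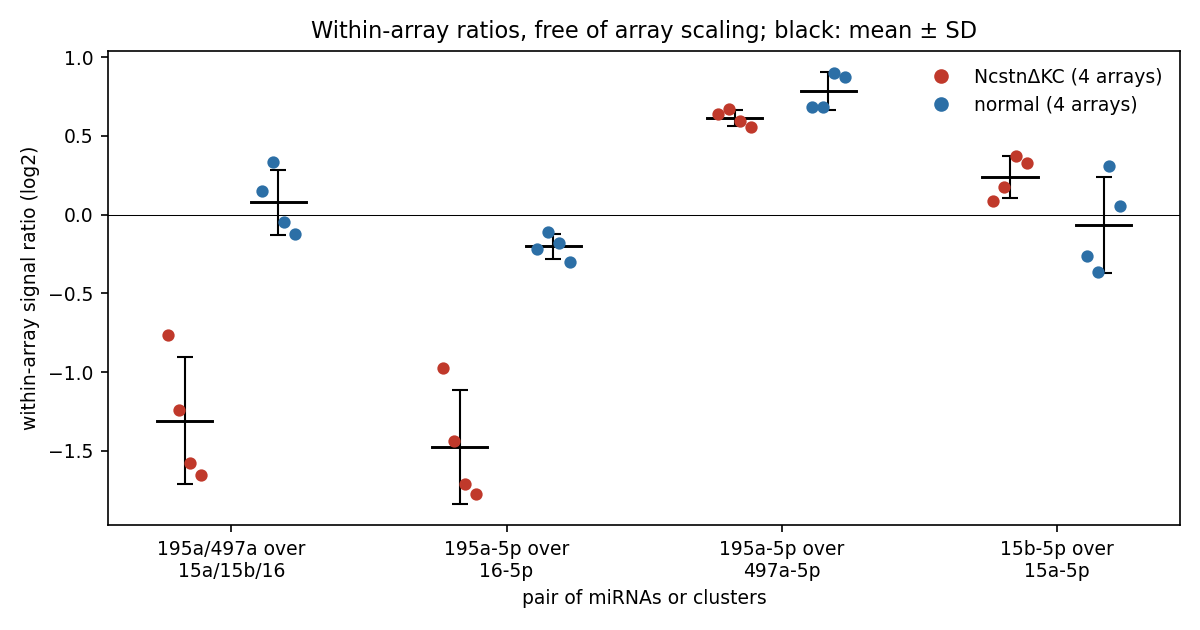
Log2 ratios of family signals within each array, NcstnΔKC in red left of normal in blue, with black bars for the mean ± SD. The ratio of the cluster of miR-195a and miR-497a to the miR-15/16 clusters and that of miR-195a-5p to miR-16-5p are lower on every NcstnΔKC array, miR-195a-5p over miR-497a-5p differs by -0.17, and miR-15b-5p over miR-15a-5p overlaps.

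The 3 ways that changed only the factor of each array (the percentile over all probes, no scaling and spike-in scaling) shifted all 6 differences by the same amount, while quantile normalisation and normexp raised that of miR-195a-5p and lowered that of miR-15b-5p slightly. Over 8 ways of making the arrays comparable, the median difference of all tested miRNAs ran from -0.54 with spike-in scaling to 0.64 with the percentile taken over all probes. Relative to that median, miR-195a-5p stayed between -1.05 and -0.98, miR-497a-5p between -0.91 and -0.81, and miR-15b-5p between 0.54 and 0.75. The main scaling and the 3 ways that changed only the array factor give the same relative values by construction. miR-195a-5p and miR-497a-5p passed the test in 7 of the 8 ways, all but the percentile over all probes, and miR-15b-5p in 5. That percentile was taken over 4415 probes, of which 301 were detected on all 8 arrays. With it the SE of each member was 0.69, against 0.13 to 0.27 in the main scaling. The other 3 members passed in 0 of the 8, and the sign of each turned in at least 1 of them. Relative to the median, miR-15a-5p lay between 0.23 and 0.45, miR-16-5p between 0.11 and 0.29, and miR-322-5p between -0.14 and -0.035.

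In the authors' deposited normalised values, on their own log2 scale, miR-195a-5p was at 9.88, 9.49, 9.18 and 9.07 in NcstnΔKC skin, against 10.66, 10.66, 10.51 and 10.53 in normal skin. The groups were again apart, by a difference of -1.18 (limma adjusted p = 0.00321). miR-497a-5p differed by -1.04 (adjusted p = 0.00816) and miR-15b-5p by 0.57 (adjusted p = 0.0391) in the same fit.

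**Figure D4:**
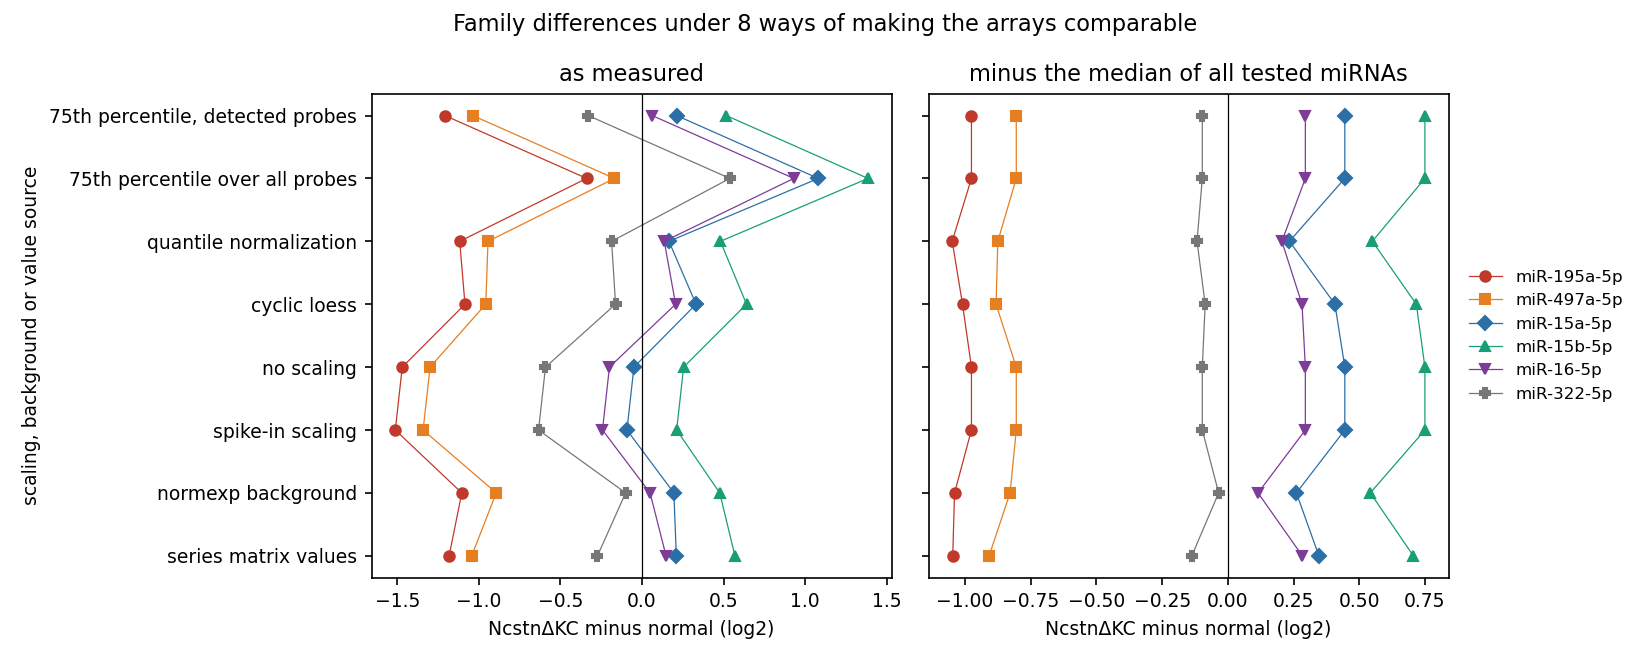
Differences of the 6 members, NcstnΔKC minus normal (log2), under 8 scalings, backgrounds or value sources, as measured on the left and minus the median of all tested miRNAs on the right. On the left the differences shift by the same amount with the percentile over all probes, no scaling and spike-in scaling, and on the right miR-195a-5p stays between -1.05 and -0.98 and miR-15b-5p between 0.54 and 0.75. On the right the main scaling and those that change only the array factor coincide by construction.

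The other products of the same hairpins gave no second reading of these clusters. A list of 16 partner arms and cluster mates, among them miR-195a-3p, miR-497a-3p, miR-15b-3p, miR-503-5p and miR-351-5p, had probes for all 16. None of the 16 was well above background on any array, so none was tested. miR-103-3p and miR-107-3p, whose seed overlaps that of the family shifted by a base, were the 2 tested of a list of 10 related seeds. They differed by -0.24 (adjusted p = 0.235) and by -0.39 (adjusted p = 0.0662), so neither passed in limma. Both passed as lower under spike-in scaling and when unscaled, and in none of the other 5 scalings tried.

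Other miRNAs tied to the cell cycle were read from lists in the same fit. Of 17 listed as restraining it (the let-7, miR-34, miR-449 and miR-26 groups), 12 were tested, 2 fell and 10 did not pass, against 27.9% lower among all tested, with a median difference of -0.21 beside -0.23 for all tested. The number lower was 8 of 12 with no scaling, 5 with spike-in scaling, 1 with quantile normalisation and 0 with the percentile over all probes. let-7b-5p averaged 3.37 ± 0.17 in NcstnΔKC skin and 4.13 ± 0.14 in normal skin (SD, n = 4 each), a difference of -0.76 (limma adjusted p = 0.00456), and let-7c-5p differed by -0.63 (adjusted p = 0.00972). With the percentile over all probes, let-7b-5p was at 0.11 and let-7c-5p at 0.24, and neither passed. miR-26a-5p at -0.45 (adjusted p = 0.0845) and let-7e-5p at 0.28 (adjusted p = 0.169) did not pass in the main scaling.

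The paralogues of miR-17 to miR-92, which are known to promote the cell cycle were read in the same way. All 9 tested of 12 listed rose, against 14.9% higher among all tested, and all 9 differences were above 0 in each of the 8 scalings. Of the 9, miR-18a-5p and miR-19a-3p were tested only because they were detected on all 4 NcstnΔKC arrays. They were detected on 1 and 2 of the 4 normal arrays, so they entered through the group in which they were higher. The list was also chosen with earlier results of these data known. The count of 9 beside 14.9% is thus a description and no test. Fewer passed in 3 of the scalings, with 1 called over all probes, 4 with spike-in scaling and 8 with no scaling. miR-20b-5p averaged -0.33 ± 0.18 in NcstnΔKC skin and -1.50 ± 0.24 in normal skin (SD, n = 4 each), a difference of 1.16 (limma adjusted p = 0.00204). miR-20a-5p and miR-19b-3p rose by 1.13 and 1.03 (adjusted p = 0.003 and 0.00307). miR-18a-5p was at -3.35, -3.07, -2.74 and -2.77 in NcstnΔKC skin, against -3.75 on normal replicate 2 and the floor of -4.97 on the other 3 normal arrays. Its fitted difference of 1.68 (adjusted p = 0.00404) rests on that floor.

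Markers of the cell types that skin can hold moved with the groups. The counts of markers that rose or fell stand beside 14.9% higher and 27.9% lower among all tested miRNAs. The lists are too short for their shares to be set apart from these. Each marker sum is the log2 of the summed scaled signals of a list, in which the brightest members weigh most. For 5 white blood cell miRNAs it was 1.40, 1.52, 2.71 and 3.06 in NcstnΔKC skin, against 0.74, 0.76, 1.08 and 1.21 in normal skin. The groups did not overlap, and 2 of the 4 tested rose, miR-142a-3p by 1.52 and miR-155-5p by 1.26. miR-155-5p and miR-150-5p were detected on all 4 NcstnΔKC arrays but on 3 of the 4 normal arrays. Both thus entered the test through the group in which they were higher. The brightest of the 5, miR-223-3p, differed by 1.15 and did not pass (limma adjusted p = 0.0644). Within each group the arrays with the higher white blood cell sum, replicates 3 and 4, were those with the lower miR-195a-5p and miR-497a-5p. Single markers did not all keep this order. miR-155-5p was highest on replicate 2 in normal skin (-3.59), and miR-150-5p was higher on NcstnΔKC replicate 1 (-2.77) than on replicate 3 (-3.04). The red blood cell sum split the arrays in the reverse way to the white blood cell sum, with 1.50, 0.56, 0.31 and 0.10 in NcstnΔKC skin. In normal skin it was 0.90, 0.84, 0.19 and -0.49. The brightest member of this sum was miR-451a. In normal skin miR-486a-5p went the other way, at -3.87, -2.70, -1.82 and -2.05. These orders were read from the values and were not tested. They are also orders by slide column, so cell content and slide column cannot be told apart. The sum over 5 fibroblast and smooth muscle miRNAs was 3.42, 3.80, 3.24 and 3.17 in NcstnΔKC skin, against 2.93, 2.89, 2.44 and 2.58 in normal skin. It was thus also higher on replicates 1 and 2 of each group, an order that was not tested either. Its members split, as 3 of 5 rose, miR-199a-3p by 0.69, miR-199a-5p by 1.06 and miR-214-3p by 1.21. miR-145a-5p fell by 1.14, being detected on 1 of 4 NcstnΔKC arrays, and miR-143-3p at -0.52 did not pass. The brightest member was miR-199a-3p, so the sum does not stand for miR-143-3p and miR-145a-5p. The sum over 3 adipose miRNAs ran from 0.41 to 0.91 in NcstnΔKC skin and from 0.93 to 1.73 in normal skin, and 2 of 3 fell. The part of these cell types in the family differences was not tested.

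The remaining marker sums overlapped between groups. The 7 epithelial miRNAs include the keratinocyte markers miR-203-3p and miR-205-5p. Their sum was 4.51 to 4.92 in NcstnΔKC skin and 4.49 to 4.78 in normal skin. Of the 7, 4 fell, miR-203-3p by 0.68 among them, and 3 did not pass. Those 3 were above 0, miR-205-5p at 0.47 (limma adjusted p = 0.0518), miR-141-3p at 0.30 and miR-200c-3p at 0.12. All 7 were detected on all 8 arrays, which were labelled skin. For 6 striated muscle miRNAs the sum was 2.69 to 5.26 in NcstnΔKC skin and 4.13 to 6.39 in normal skin. 1 of the 4 tested fell, while 3 passed as lower under spike-in scaling and when unscaled and 0 in the other 5 scalings, and miR-208b-3p and miR-499-5p were not well above background on any array. The endothelial sum was 1.46 to 1.75 in NcstnΔKC skin and 1.25 to 1.62 in normal skin, with 0 of 1 tested called. The red blood cell sum was 0.10 to 1.50 in NcstnΔKC skin and -0.49 to 0.90 in normal skin, with 1 of 2 fallen and miR-144-3p not above background on any array. The 1 that fell, miR-486a-5p, was detected on 1 of 4 NcstnΔKC and 4 of 4 normal arrays, with 2 values at the floor. It thus entered the test through the group in which it was higher. With the percentile over all probes no epithelial, fibroblast or adipose marker passed, and the epithelial differences ran from 0.056 to 1.33. The part of these markers in the family differences was not tested either.

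By the mean absolute difference between centred log2 signals over 8 arrays, the miRNA nearest to miR-195a-5p among 221 others was its cluster neighbour miR-497a-5p, at 0.0934. Next were miR-100-5p at 0.124 and miR-7216-5p at 0.154, against a median of 0.577 over all candidates. miR-100-5p differed by -1.07 (limma adjusted p = 0.00402) and miR-7216-5p by -1.38 (adjusted p = 0.00457), the second being well above background on 1 of 4 NcstnΔKC and 4 of 4 normal arrays. The miRNA nearest to miR-16-5p was miR-15a-5p, at 0.0750, followed by miR-27a-3p at 0.117 and miR-182-5p at 0.130. The median there was 0.416, and miR-497a-5p was the 144th nearest to miR-16-5p. The nearest miRNA of each of the 2 was thus a product of a shared cluster. However, miR-15b-5p, from the other cluster that makes miR-16-5p, was not among the 3 nearest to miR-16-5p.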

How the data were processed

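Total RNA from mouse skin was measured on 8 Agilent 1-colour miRNA arrays, 4 NcstnΔKC and 4 normal. The deposited spot values were Cy3 intensity, background-subtracted by Feature Extraction per the file headers. The authors' deposited series table holds log2 values whose normalisation and centring are not given in the sources used here, with column medians from 3.24 to 3.25. It was used as an alternative.

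Control spots and outlier-marked spots were left out. The mean of each probe's spots was scaled to the 75th percentile of the 301 probes that were detected on every one of the 8 arrays, and probes were summed per miRNA, floored at 0.0318 and taken to log2. Detection of a probe required that 50% or more of its spots be marked well above background, and testing of a miRNA that it be detected on all 4 arrays of a group. The test was limma's (version 3.58.1, under R 4.3.3), with Benjamini-Hochberg adjustment over 222 miRNAs, threshold 0.05, and the code was tested on simulated data. The precision is limited by the number of arrays.

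The members and lists were chosen with earlier results of these data known. The text names all members, up to 4 miRNAs per list by smallest p, marker lists by their sums and examples, and the 3 nearest miRNAs by likeness. Alternatives covered scaling, background, summary, floor, filter, replicate block and leaving out each array. The genome build per the file headers is mm9, and positions printed here are those of RefSeq on GRCm38.p6.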

Additional observations from a re-analysis of the deposited data

How the results depend on the processing

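The ratio of the cluster of miR-195a and miR-497a to the miR-15/16 clusters differed by -1.57 to -1.27 when an array was left out and by -1.42 to -1.24 otherwise. By construction, the floors, the filters, the replicate block and the array factors left that ratio at -1.39. The differences of miR-195a-5p and miR-497a-5p kept their direction under all 22 alternatives, of which the floors, the filters and the block could not change them. With the 75th percentile over all probes they were -0.34 (adjusted p = 0.815) and -0.17 (adjusted p = 0.900) and did not pass, miR-15b-5p was at 1.39 (adjusted p = 0.224), miR-322-5p turned to 0.54 (adjusted p = 0.701), and 11 miRNAs were called. With no filter on dim miRNAs, which adds those near background to the adjustment, miR-497a-5p was at -1.04 (adjusted p = 0.0930), miR-15b-5p at 0.52 (adjusted p = 0.189), and 19 of 1881 were called. miR-15b-5p also missed the threshold with no scaling at 0.26 (adjusted p = 0.218), spike-in scaling at 0.21 (adjusted p = 0.417) and the scanner software totals at 0.42 (adjusted p = 0.123). miR-15a-5p turned to -0.050 with no scaling and to -0.092 with spike-in scaling, and miR-16-5p to -0.20, -0.24 and, with software totals, -0.032. The cause was not tested. Of all miRNAs, 95 were called (33 higher, 62 lower), 60 with software totals and 61 of 174 when detection on all 8 arrays was required. The split was 37 to 33 with quantile normalisation, 41 to 35 with cyclic loess, 36 to 28 with normexp, 24 to 101 with no scaling and 18 to 91 with spike-in scaling, higher to lower.

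Leaving out each array in turn gave 59 to 94 calls, with 59 without NcstnΔKC replicate 3. The differences then ranged from -1.34 to -1.11 for miR-195a-5p, from -1.16 to -0.94 for miR-497a-5p, from 0.44 to 0.60 for miR-15b-5p, from 0.13 to 0.26 for miR-15a-5p, from -0.0012 to 0.0995 for miR-16-5p, turned without normal replicate 3, and from -0.50 to -0.17 for miR-322-5p. Same-numbered samples, which shared a slide column, did not deviate together over all tested miRNAs (r = -0.44, 0.20, -0.26 and -0.23). The numbers were therefore not taken as pairs. miR-195a-5p and miR-497a-5p were nonetheless lower on replicates 3 and 4 than on replicates 1 and 2 in each group. The fit with the replicate block called 71 miRNAs (28 higher, 43 lower) and changed no member's call, with adjusted p-values of 0.0105 for miR-195a-5p and miR-497a-5p and 0.0432 for miR-15b-5p. The block gave miR-195a-5p an SE of 0.15, against 0.19 without it, and miR-497a-5p an SE of 0.14, against 0.20. Of the members, miR-322-5p had the widest standard error, 0.27.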

Other observations

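The summed signal of the 6 members differed less between the groups than that of miR-195a-5p alone. On the log2 scale it was 3.39, 3.42, 3.41 and 3.39 in NcstnΔKC skin, against 3.68, 3.69, 3.45 and 3.56 in normal skin. All NcstnΔKC values lay below all normal values, by a mean of -0.19, with an SD of 0.015 in NcstnΔKC skin and 0.11 in normal skin. The sum adds probe signals that need not be equally bright per molecule and depends on the array scaling. It was chosen after the values were seen and has no test.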
